A study of Mus musculus with 2 samples.

Results

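The 9 genes of nucleolar ribosome production followed here (Rrs1, Ncl, Npm1, Fbl, Nop56, Nop58, Nolc1, Polr1b and Wdr43) and Myc were described across the blood cell lineages of mouse bone marrow. The genes were chosen by name with earlier results of these data known. All 10 of 10 were found among the 27706 gene columns of the 2 count tables. The marrow came from ICR mice aged 7 to 8 weeks and was depleted of cells carrying lineage markers with magnetic beads, then captured on the BD Rhapsody system, which counts molecules by unique molecular identifier (UMI). The hypoxia group was held for 13 days in a chamber at 52.93 kPa, the pressure of 5000 m, with 19.5% oxygen. Control mice were killed on arrival and had no time in the chamber, so the pressure cannot be told apart from 13 days of age, housing and handling. No allele or drug is named for either group, and the sources used here do not say how many mice went into a library. Each group was 1 library. No difference below therefore has a replicate check or a test, and every interval covers counting error only.

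A cell makes ribosomes in the nucleolus, where RNA polymerase I transcribes the ribosomal RNA precursor, small nucleolar ribonucleoproteins modify it, and assembly factors cut, fold and load it with ribosomal proteins. Myc is a transcription factor that binds E-box sequences with its partner Max and is known for driving this programme in growing cells. Erythroid progenitors divide quickly and build large amounts of protein before they shut ribosome production down as they fill with haemoglobin.

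Of the genes followed, Polr1b encodes a core subunit of RNA polymerase I. Fbl is the methyltransferase of the box C/D ribonucleoproteins, Nop56 and Nop58 are their scaffold proteins, and Nolc1 is a chaperone of these particles. Ncl (nucleolin) acts in ribosomal RNA transcription and processing, and Npm1 (nucleophosmin) is an abundant nucleolar chaperone. Wdr43 belongs to the small subunit processome, and Rrs1 brings the 5S ribonucleoprotein into the large subunit. On GRCm38 (GENCODE vM21) the genes lay on 7 chromosomes, with Rrs1 on chromosome 1 from 9545408 to 9547455, Ncl on chromosome 1 from 86344719 to 86359400, Nolc1 on chromosome 19 from 46075863 to 46085530 and Myc on chromosome 15 from 61985391 to 61990374. Rrs1 had 1 exon and Myc 3. Ncl held 3 annotated small nucleolar RNA genes, Nop56 held 5, Nop58 held 4 and Wdr43 held 3. Nop56 overlaps Idh3b and Wdr43 overlaps an antisense gene on the other strand, and the sources used here do not say whether the counting used strand, so reads in those overlaps cannot be assigned. Npm1 has processed pseudogenes in the mouse genome, and its counts depend on how reads shared with them were handled.

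Promoter sequences were in the RefSeq table (GRCm38.p6) for 6 of 10 genes, Ncl, Nop56, Nop58, Nolc1, Polr1b and Wdr43, and not for Rrs1, Npm1, Fbl and Myc. The 100 bases before the transcript start, the earlier of the RefSeq and GENCODE starts, are shown for Ncl and Nolc1, the pair with the lowest erythroid ratios of these 6, and for Nop58 and Polr1b, whose ratios were nearer to 1. Capitals mark GC boxes (GGGCGG or its reverse complement CCGCCC) and ETS cores (CCGGAA or TTCCGG), and each is written 5′ to 3′ on the gene's own strand.
Ncl, chr1:86359456-86359555, minus strand: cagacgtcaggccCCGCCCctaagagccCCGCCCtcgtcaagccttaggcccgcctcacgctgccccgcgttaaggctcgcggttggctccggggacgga
Nolc1, chr19:46075747-46075846, plus strand: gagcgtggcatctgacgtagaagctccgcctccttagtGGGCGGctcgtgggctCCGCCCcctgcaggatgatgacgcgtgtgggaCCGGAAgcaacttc
Nop58, chr1:59684871-59684970, plus strand: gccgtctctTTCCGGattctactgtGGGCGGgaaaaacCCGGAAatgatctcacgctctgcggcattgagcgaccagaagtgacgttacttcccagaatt
Polr1b, chr2:129100895-129100994, plus strand: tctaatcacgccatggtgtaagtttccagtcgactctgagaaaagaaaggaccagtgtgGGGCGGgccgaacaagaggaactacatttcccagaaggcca
The E-box CACGTG, the site Myc and Max bind, was searched in the whole table windows of 250 bases before to 50 after the start. Wdr43 was the 1 gene of these 6 with a match, its first letter at base 18 counted from the RefSeq start, on chr17:71616220-71616249, plus strand, with the E-box in capitals. GENCODE starts Wdr43 at 71615895, upstream of the whole window, so by that annotation the site lies inside the gene.
Wdr43 E-box site: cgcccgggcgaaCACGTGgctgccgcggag
Over all windows of that length 7.15% held an E-box, 14.9% an ETS core and 35.7% a GC box, both strands read. A match describes letters in the window and no match says only that these letters are not there.

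Cells were assigned one by one to 11 lineage gates by summed marker UMIs, and erythroid cells to 4 stages by Gata2 and globin. None of the 10 genes was a marker. The deposited tables give no cell annotation, so the names were rebuilt here from markers. The gates held 3404 hypoxia and 2261 control cells for the erythroid lineage, 143 and 156 for HSC/MPP (Hlf-positive stem and multipotent progenitor cells), and 181 and 115 for lymphoid-primed progenitors. Granulocyte-monocyte progenitors (GMP) numbered 392 and 261, monocyte-lineage cells 950 and 270, and basophil or mast cells 618 and 261. Megakaryocyte (62 and 99), neutrophil (119 and 73), eosinophil (66 and 19), T/NK/ILC (71 and 48) and B-lineage cells (27 and 21) were few. All 10 erythroid markers were detected in erythroid cells and sum to 6796 and 5964 CPM there. The 8 HSC/MPP markers sum to 1653 and 1545 CPM in the HSC/MPP gate against 212 and 123 CPM in erythroid cells. Gating required at least 6 of the erythroid and 4 of the HSC/MPP markers and a least sum of each. High sums of a gate's own markers therefore follow from the gating and do not check its name. Neighbouring gates shared markers. GMP markers sum to 2943 and 2689 CPM in the HSC/MPP gate, above its own, and to 9788 and 11585 CPM in the monocyte gate, where its own sum to 5673 and 5122. The megakaryocyte gate held HSC/MPP markers at 767 and 873 CPM beside 18352 and 17662 CPM of its own. After filters 6280 hypoxia and 3917 control cells remained, with medians of 21345 and 32156 UMIs per cell, and 23 cell indexes occurred in both libraries, none with the same counts. Values below are CPM, the UMIs of a gene scaled to 1000000 UMIs of the gate, with hypoxia first. Counts are of molecules per gene and are not divided by gene length, so levels are compared across gates and not between genes.

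Each of the 9 nucleolar genes was highest in early or globin-low erythroid cells in both libraries, and Myc was highest elsewhere in the control. In hypoxia early erythroid cells did not rank high for every gene. Nop56 was at 452 CPM there, below 509.9 in B-lineage and 483 in globin-onset cells, and Rrs1 at 49.97 CPM, below 59.0 in GMP. In the control, Ncl ranged from 335 CPM in neutrophils to 3313 in globin-low erythroid cells, and Npm1 from 394 to 3913 between the same gates. Neighbouring gates often overlapped in the counting intervals. For Ncl in the control, the intervals of HSC/MPP (1606 CPM), monocyte (1555), globin-high erythroid (1495) and B-lineage cells (1459) overlapped from each to the next, whereas those of globin-low (3313), early (3065) and globin-onset erythroid cells (2482) did not. Polr1b ranged from 6.29 CPM (1 UMI) in B-lineage to 64.2 CPM in early erythroid cells of the control. Myc was highest in control lymphoid-primed progenitors (595 CPM, 95% counting interval 560 to 633), HSC/MPP (492, 463 to 522) and GMP (479 CPM), and lowest in globin-high erythroid cells (52.0 CPM). In the hypoxia library Myc was highest in early erythroid cells (454 CPM), with HSC/MPP next (365, 337 to 394) and overlapping GMP (356 CPM).

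**Figure D1:**
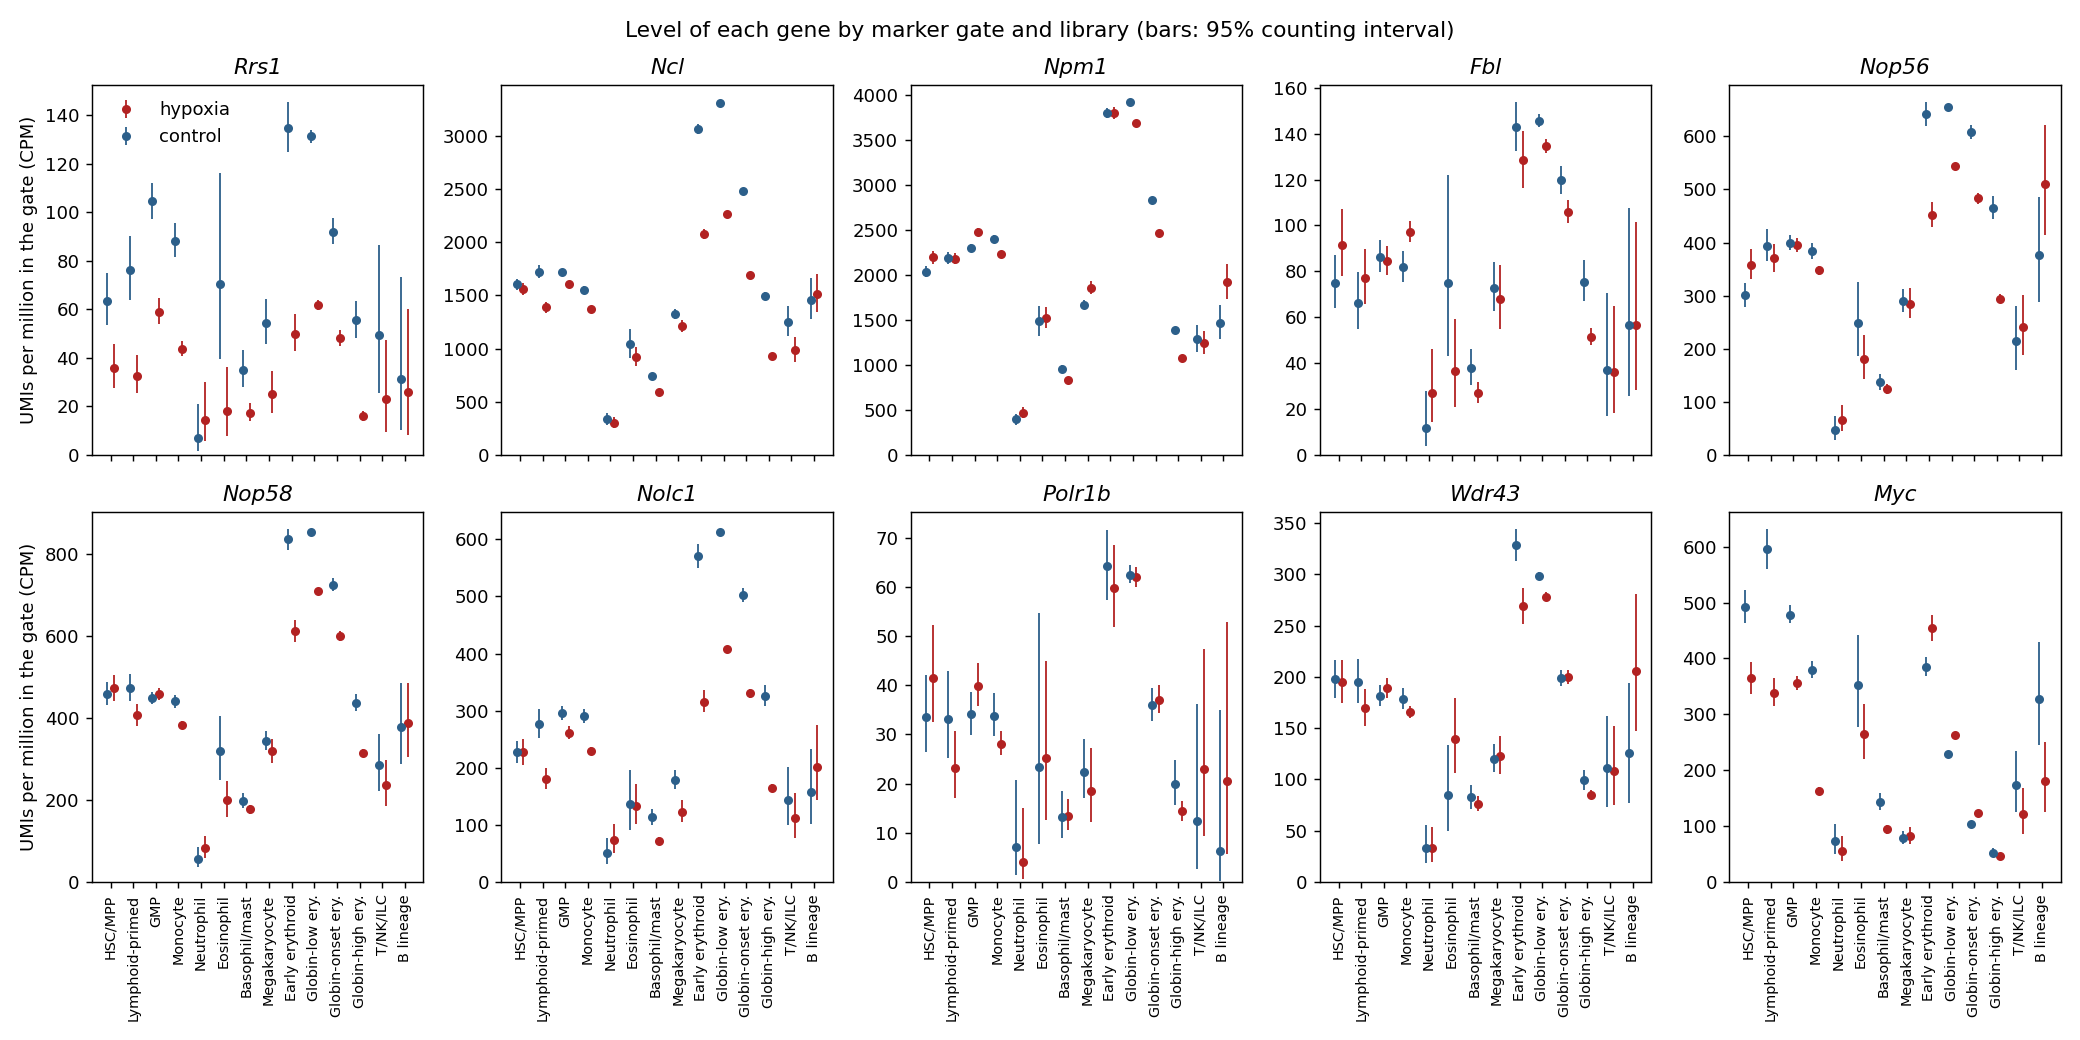
Level of each of the 10 genes (y axis, CPM of the gate, from 0) in 14 gates that do not overlap (x axis), with red points for the hypoxia library and blue points for the control and bars for the exact Poisson 95% interval. Each nucleolar gene peaks in early or globin-low erythroid cells, and the blue Rrs1 points lie above the red ones in every gate but neutrophils.

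In erythroid cells all 9 nucleolar genes were lower in the hypoxia library, while Myc was at almost the same level. Rrs1 was at 51.7 CPM in hypoxia and 123 CPM in control, a ratio of 0.420 (0.406 to 0.434). Ncl was at 1944 and 3113 CPM, a ratio of 0.624 (0.621 to 0.628). Nolc1 was at 352 and 584 CPM, a ratio of 0.603 (0.594 to 0.611). These 3 were at least 1.5-fold lower on the log2(CPM + 10) scale, which understates the difference of low genes, and none of the 9 was higher by that much. Of 11978 genes with at least 50 UMIs in erythroid cells, 1.49% were as much lower and 2.67% as much higher. The box C/D proteins were lower by less. Nop56 was at 490.4 and 640.4 CPM, a ratio of 0.766 (0.757 to 0.775). Nop58 was at 624 and 818 CPM, a ratio of 0.762 (0.754 to 0.770). The methyltransferase Fbl was at 116 and 139 CPM, a ratio of 0.833 (0.812 to 0.855). Npm1, the most counted of them, was at 3053 and 3657 CPM, a ratio of 0.835 (0.831 to 0.839). Wdr43 was at 233 and 279 CPM, a ratio of 0.836 (0.821 to 0.851). Polr1b was nearest to 1 of the 9, at 49.7 and 57.3 CPM, a ratio of 0.868 (0.834 to 0.903). Together the 9 genes took 0.691% of erythroid UMIs in hypoxia and 0.941% in control. Their median log2 ratio was -0.38, against 0.03 over all genes measured. Myc stood at 210 CPM (207 to 213) and 213 CPM (210 to 216), a ratio of 0.984 whose interval, 0.965 to 1.004, included 1. Its log2 ratio of -0.02 was 0.20 with the 4 stages weighted equally and 0.12 without globin-high cells, both chosen after seeing the data.

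With all erythroid stages pooled, the difference in Ncl was not held by a few cells. The pooled Ncl percentiles and Rrs1 shares that follow also carry the mix of stages. Globin-high cells, where Ncl was lower, made up 21.2% of hypoxia and 6.59% of control erythroid cells. In hypoxia the 10th percentile, median and 90th percentile of Ncl over erythroid cells were 814, 1870 and 2747 CPM, and in control they were 1933, 3093 and 3977 CPM. The single cell with the most Ncl held 0.131% and 0.140% of its UMIs. Rrs1 had a UMI in 64.4% of hypoxia and 94.8% of control erythroid cells at their own depths (medians 27017 and 41061 UMIs). With each cell thinned to 5000 UMIs, which left out 5 hypoxia and 6 control cells, the shares were 21.4% (95% Clopper-Pearson interval 20.02 to 22.8) and 43.9% (41.8 to 45.9). No cell type is known to lack these genes. Rrs1 had its lowest thinned share of an erythroid stage in globin-high cells, 6.85% and 21.0%, at median depths of 19183 and 26019 UMIs.

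**Figure D2:**
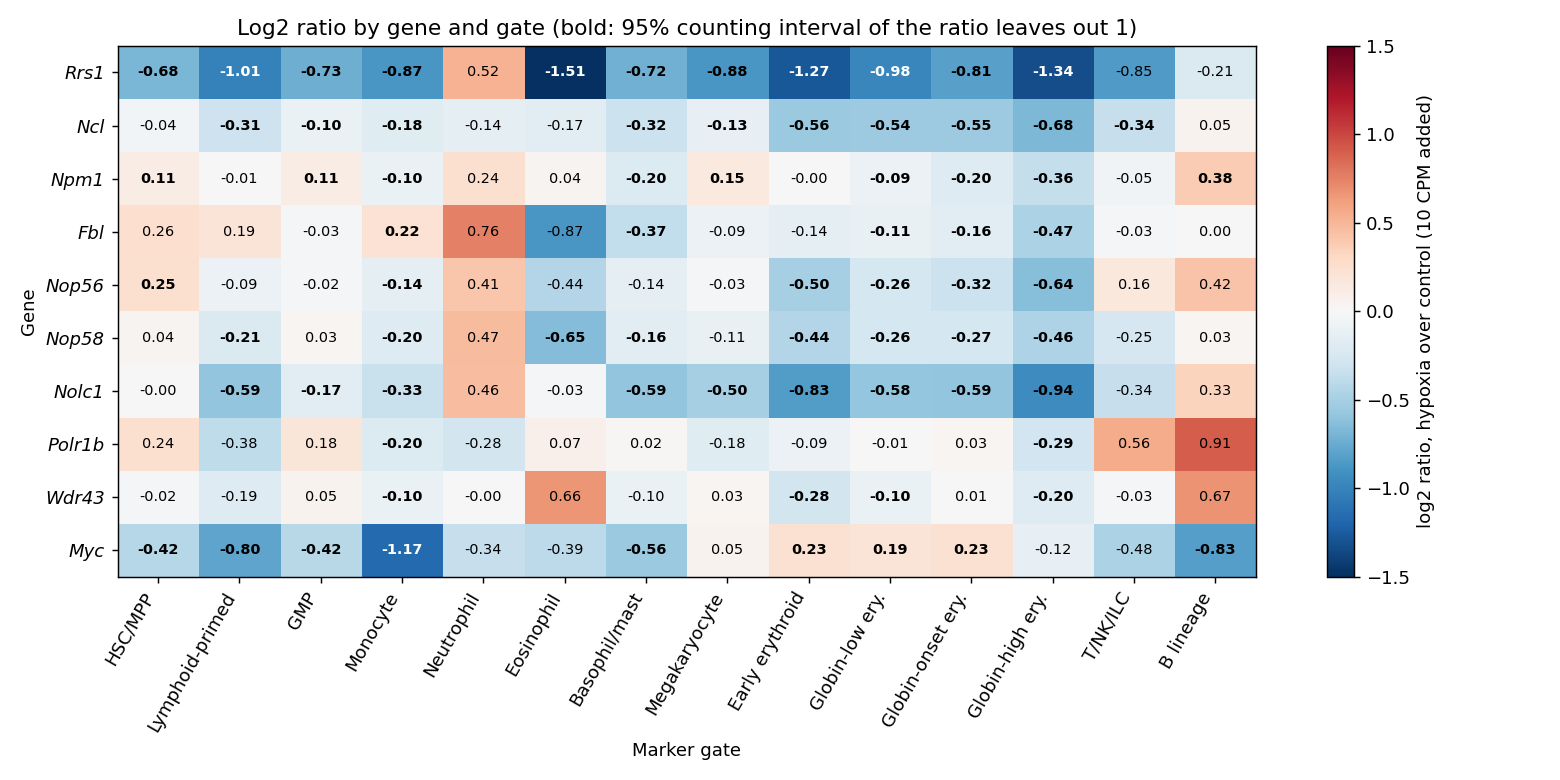
Log2 ratio of hypoxia over control with 10 CPM added (colour and printed value) for the 10 genes (rows) in 14 gates (columns), bold where the 95% counting interval of the ratio leaves out 1. Rrs1 is blue in all gates but neutrophils, Ncl and Nolc1 are blue in all 4 erythroid stages, and the Myc row is blue in HSC/MPP, lymphoid-primed, GMP and monocyte cells and red in the first 3 erythroid stages.

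Part of the whole-lineage difference went with the mix of stages. Globin-high cells made up 21.2% of hypoxia and 6.59% of control erythroid cells, and globin-low cells 55.3% and 72.1%. Within each stage the median log2 ratio of the 9 genes was still below 0, at -0.44 in early cells (Gata2-positive, globin below 5 UMIs per 10000), -0.26 in globin-low, -0.27 in globin-onset and -0.47 in globin-high cells (globin at 50 or more). Rrs1 was at 49.97 and 135 CPM in early, 61.9 and 131 CPM in globin-low, 48.0 and 92.0 CPM in globin-onset and 15.9 and 55.5 CPM in globin-high cells. Hypoxia was below control at every stage, and the intervals did not overlap. Ncl was at 2076 and 3065, 2269 and 3313, 1695 and 2482, and 930 and 1495 CPM over the same stages, with ratios between 0.622 and 0.685. Nolc1 was at 316 and 570.3, 408 and 613, 330.0 and 503, and 165 and 326 CPM, with ratios between 0.505 and 0.665. For the genes nearest to 1 in the whole lineage the ratio varied from stage to stage. Polr1b was at 62.0 and 62.5 CPM in globin-low cells, a ratio of 0.991 (0.948 to 1.04), and Wdr43 at 199.7 and 198.7 CPM in globin-onset cells, a ratio of 1.005 (0.954 to 1.06). Npm1 was at 3792 and 3794 CPM in early cells, a ratio of 0.999 (0.977 to 1.02). In other stages they were further from 1. Polr1b was at 14.3 and 19.8 CPM in globin-high cells, a ratio of 0.724, and Npm1 at 1079 and 1385 CPM there, a ratio of 0.778. Wdr43 was at 269 and 328 CPM in early cells, a ratio of 0.819. Of the 9 genes, 2 were at least 1.5-fold lower in early cells (3.83% of all genes measured there), 1 in globin-low (1.25% there), 2 in globin-onset (1.5%) and 4 in globin-high cells (2.3%). None was as much higher in any of the 4 stages, where 7.25%, 2.21%, 2.61% and 3.97% of all genes were.

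Myc was higher in the hypoxia library in the first 3 stages. It was at 454 and 385 CPM in early cells, a ratio of 1.18 (1.10 to 1.26). In globin-low cells it was at 263 and 229 CPM, a ratio of 1.15 (1.13 to 1.18), though not in every range of depth. In globin-onset cells it was at 123 and 103 CPM, a ratio of 1.19 (1.11 to 1.28). In globin-high cells it was at 47.0 and 52.0 CPM, a ratio of 0.903 whose interval (0.769 to 1.06) included 1. The log2 ratio stayed above 0 in the first 3 stages under all 13 alternatives run on them, from 0.03 to 0.39 in early, 0.09 to 0.22 in globin-low and 0.17 to 0.25 in globin-onset cells. In control globin-low cells 61.1% (58.7 to 63.5) had a Myc UMI after thinning, and in hypoxia 65.7% (63.6 to 67.9). The 9 nucleolar genes together had 31.0 UMIs per Myc UMI in hypoxia and 43.6 in control globin-low cells.

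Along a finer scale of 7 globin bins, all 10 genes were lower in the highest bin than in the lowest in both libraries, and lower at each of the 6 steps except for Nop58 (5 in each library) and Nolc1 (4 in hypoxia). From the lowest bin (under 1 globin UMI per 10000) to the highest (200 or more), Myc went from 302 to 24.2 CPM in hypoxia and from 267 to 35.7 CPM in control, which was 12.5-fold and 7.47-fold lower. Polr1b was 11.2-fold and 9.70-fold lower in the highest bin, and Npm1 6.64-fold and 6.63-fold. Nop56 differed least along this scale, 2.57-fold and 2.18-fold. Rrs1 was 7.91-fold lower in hypoxia and 3.77-fold lower in control, going from 62.3 to 7.87 CPM and from 134 to 35.7 CPM. Of 720 and 149 globin-high cells, 499 and 108 were in the bin from 50 to 200, so the highest bin held few control cells. Polr1b was at 5.83 and 6.80 CPM there, from few UMIs. No interval was taken for these folds, and their differences between libraries are not read. Rrs1, Ncl, Nop56, Nop58 and Nolc1 were below control in all 7 bins with intervals of the ratio that left out 1. The Myc ratio had its interval above 1 in the 4 bins up to 20 globin UMIs per 10000 and was highest between 1 and 2, at 253 and 166 CPM (ratio 1.52). In the 3 bins from 20 globin UMIs upward the Myc interval included 1.

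**Figure D3:**
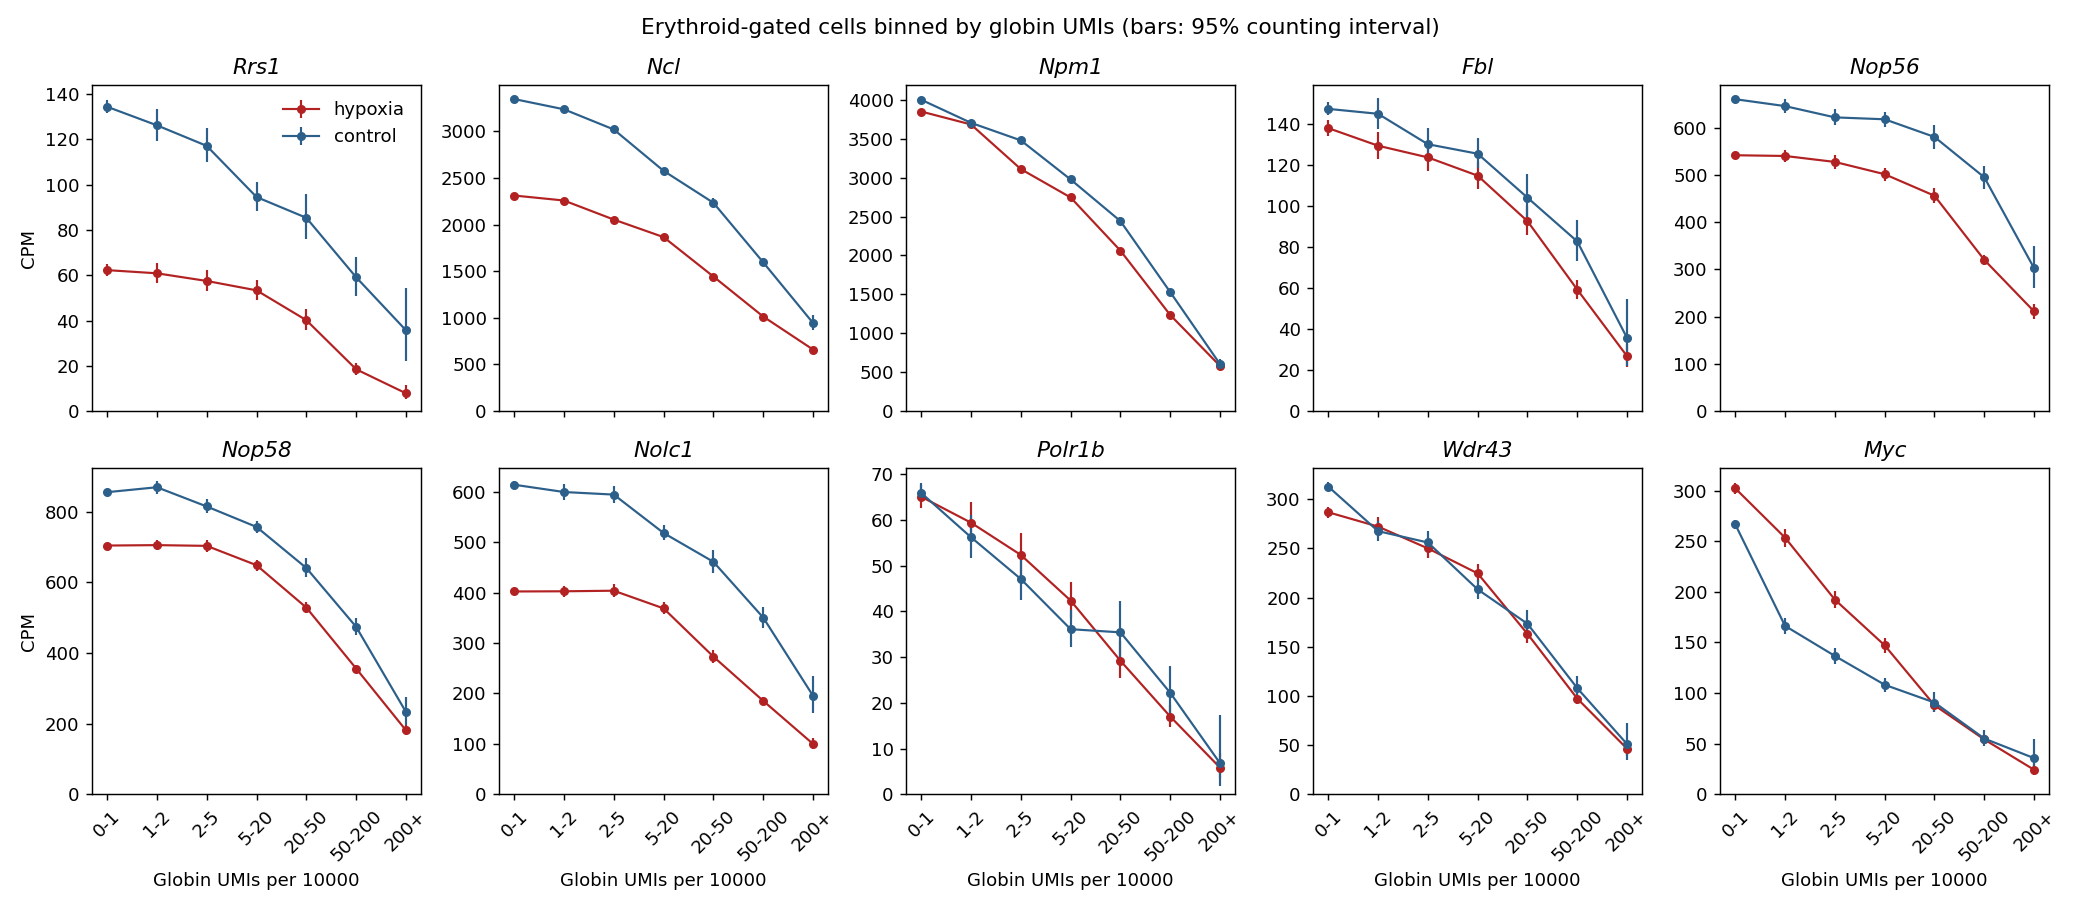
Level (y axis, CPM, from 0) of the 10 genes in erythroid cells binned by globin UMIs per 10000 (x axis), red for hypoxia and blue for control, bars for 95% counting intervals. All genes are lowest at the right; blue stays above red for Rrs1, Ncl and Nolc1, while red lies above blue for Myc in the first 4 bins.

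The libraries differed in depth, and globin-low cells were therefore set in 5 bins of UMIs per cell. The log2 ratio lay between -1.01 and -0.83 for Rrs1, between -0.66 and -0.44 for Ncl and between -0.78 and -0.36 for Nolc1, with every interval below a ratio of 1. Fbl, Polr1b and Wdr43 had intervals that included 1 in all 5 bins. Myc lay between -0.22 and 0.36, with its interval above 1 in 3 bins and below 1 in 1 bin, so its direction in these cells varied with depth. The bin below 1 held cells of 20000 to 30000 UMIs (765 and 117 cells), with Myc at 278 and 325 CPM. Hsp90aa1, a chaperone, was at 2104 and 5089 CPM in erythroid cells and Hsph1, another, at 206 and 992 CPM. Both were also lower in hypoxia in GMP, at 1346 and 2338 CPM and at 72.9 and 254 CPM. The 9 nucleolar genes summed to 5570 CPM in each library there. Ribosomal protein genes took 14.7% and 15.7% of erythroid UMIs, and Mki67, a gene of dividing cells, was at 755 and 556 CPM. The pooled Mki67 values carry the mix of stages. Mki67 was at 332 and 347 CPM in early and 499 and 472 CPM in globin-low cells. In globin-onset cells it was at 893 and 826 CPM and in globin-high cells at 1701 and 1520 CPM. The part of the heat-shock genes, ribosomal protein genes and Mki67 in the nucleolar differences was not tested.

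**Figure D4:**
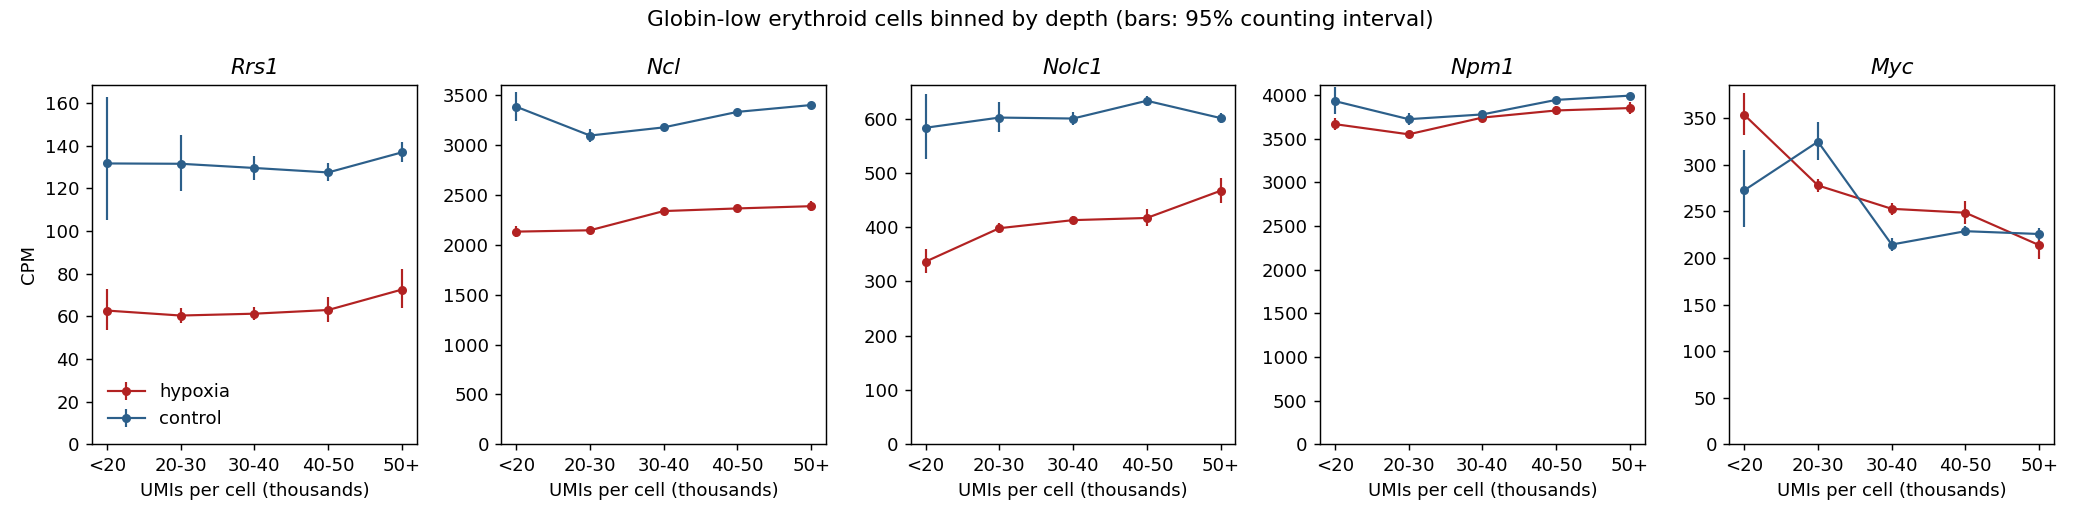
Level (y axis, CPM, from 0) of Rrs1, Ncl, Nolc1, Npm1 and Myc in globin-low erythroid cells binned by UMIs per cell in units of 1000 (x axis), red for hypoxia and blue for control, bars for 95% counting intervals. Red lies below blue in every bin for Rrs1, Ncl and Nolc1, and the Myc lines cross.

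In the HSC/MPP gate Myc was lower in hypoxia and most nucleolar genes were near equal. Myc was at 365 and 492 CPM, a ratio of 0.741 (0.671 to 0.818). Thinned to 5000 UMIs, 63.1% (54.6 to 71.1) of hypoxia and 81.05% (73.9 to 86.9) of control cells had a Myc UMI, against 81.1% and 89.7% at their own depths of 10761 and 13422 UMIs. Its log2 ratio was between -0.65 and -0.35 over 13 alternatives. Ncl was at 1559 and 1606 CPM, a ratio of 0.971 (0.924 to 1.02). Nolc1 was at 227 CPM in both libraries, with a ratio interval of 0.874 to 1.14. Nop56, at 358 and 301 CPM (ratio 1.19, 1.07 to 1.33), and Npm1, at 2193 and 2034 CPM (ratio 1.08, 1.03 to 1.13), were higher in hypoxia. Rrs1 was at 35.7 and 63.5 CPM, a ratio of 0.563 (0.411 to 0.764), from 62 and 142 UMIs. Rrs1 was the 1 nucleolar gene at least 1.5-fold lower here, where 2.97% of 8520 genes were, and none was as much higher (3.49%). The median log2 ratio of the 9 was 0.04 and that of all genes 0.02. The early response gene Fos was at 297 and 1133 CPM and Hsph1 at 68.6 and 256 CPM in the same cells. Mki67 was at 291.5 and 512 CPM, Elane, a GMP gene, at 88.7 and 38.9 CPM, and basophil or mast markers summed to 543 and 316 CPM. Their part in the differences of this gate was not tested.

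Lymphoid-primed progenitors and GMP had lower Myc as well. In lymphoid-primed progenitors Myc was at 339 and 595 CPM, a ratio of 0.569 (0.517 to 0.626). Fos was at 203 and 1071 CPM there, 129 and 305 CPM in GMP and 398 and 762 CPM in monocyte-lineage cells, and its part in the Myc differences of these 3 gates was not tested. Nolc1 (181 and 276 CPM) and Rrs1 (32.6 and 76.1 CPM) were at least 1.5-fold lower there, as were 2.79% of all genes measured, and none of the 9 was as much higher (3.47%). Npm1 was at 2177 and 2187 CPM. In GMP Myc was at 356 and 479 CPM, a ratio of 0.744 (0.708 to 0.782). Rrs1 alone of the 9 was at least 1.5-fold lower in GMP (59.0 and 104 CPM), where 1.23% of all genes were. The 9 genes summed to 5570 CPM in each library of GMP, with a ratio interval of 0.987 to 1.01, and none was 1.5-fold higher (1.33% of all genes).

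Monocyte-lineage cells had the lowest Myc ratio of the 14 gates. Myc was at 164 CPM (158 to 170) in hypoxia and 380.0 CPM (366 to 395) in control, a ratio of 0.431 (0.408 to 0.454). It was at least 1.5-fold lower, as were 1.6% of all genes measured in these cells, and its log2 ratio was between -1.32 and -1.01 over 13 alternatives. In the nucleolar genes 8 ratio intervals were below 1 and 1 above, with Rrs1 alone at least 1.5-fold lower (43.8 and 88.2 CPM) and none as much higher (2.6% of all genes). The share of all genes with an interval below or above 1 was not taken, so the count of 8 has no background. Ncl was at 1375 and 1555 CPM, and Fbl was higher, at 97.2 and 82.0 CPM. Cells that also carried GMP markers made up 64.7% of hypoxia and 80.7% of control monocyte-lineage cells. In those cells Myc was at 190.4 and 404 CPM, a ratio of 0.471 (0.446 to 0.498), while Ncl was at 1548 and 1608 CPM. The ratio intervals of Npm1, Nop56, Polr1b and Wdr43 included 1 in those cells. Those of Rrs1, Ncl, Nop58 and Nolc1 were below 1, and that of Fbl was above. In the remaining 335 and 52 cells Myc was at 64.1 and 204 CPM, a ratio of 0.315 (0.258 to 0.385), and Ncl at 732 and 1168 CPM.

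Rrs1 was lower in hypoxia by at least 1.5-fold in 12 of the 14 gates and higher by that much in none. Between 1.23% and 10.8% of all genes were as much lower in those 12 gates. Its log2 ratio stayed below 0 in each of the 12 under all 13 alternatives. In cells of 15000 to 40000 UMIs that sign rested on 4 and 2 eosinophils and on 3 and 1 T/NK/ILC cells. The gates come from the same 2 libraries, and the share of all genes lower in as many gates is not given here. With 50 CPM added, 7 of the 12 were no longer 1.5-fold lower: HSC/MPP (-0.40), GMP (-0.50), monocyte (-0.56), basophil or mast (-0.33), megakaryocyte (-0.48), globin-onset erythroid (-0.54) and T/NK/ILC cells (-0.45). The T/NK/ILC ratio interval, 0.155 to 1.28, included 1, and that call was also lost as a mean over cells (-0.49) and with doubled marker thresholds (-0.52). The other gates were neutrophils, with 7 and 3 Rrs1 UMIs in all, and B-lineage cells (25.8 and 31.5 CPM, ratio interval 0.188 to 3.56). In basophil or mast cells Rrs1 (17.4 and 34.9 CPM) and Nolc1 (71.9 and 113 CPM) were at least 1.5-fold lower, as were 3.13% of all genes, and none was as much higher (3.11%). Myc was at 94.1 and 143 CPM, a ratio of 0.656 (0.571 to 0.754). In megakaryocyte-lineage cells Myc was at 82.1 and 79.05 CPM, a ratio of 1.04 (0.819 to 1.31), and Rrs1, at a ratio of 0.461 (0.308 to 0.672), was the 1 nucleolar gene 1.5-fold lower (3.13% of all genes), with none as much higher (3.17%). Eosinophil, neutrophil, T/NK/ILC and B-lineage gates had at most 119 cells in a library, and there 10.8%, 6.29%, 9.86% and 11.7% of genes were at least 1.5-fold lower and 11.4%, 9.16%, 9.16% and 10.5% as much higher. Of the 9 genes 3, 0, 1 and 0 were as much lower and 1, 1, 0 and 2 as much higher. Most of their member intervals included 1, as for Nolc1 in T/NK/ILC cells (112 and 144 CPM, 0.469 to 1.28).

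Other ribosome biogenesis genes were read from 5 lists of 131 genes that leave the members out. The lists too were chosen with earlier results of these data known. In erythroid cells 13 of 131 were at least 1.5-fold lower and 0 higher, against the 1.49% and 2.67% of all genes given above. That count of 13 was between 0 (at 2-fold) and 29 (with TMM scaling) over 17 alternatives. The count was 3 without globin-high cells and 2 in cells of 15000 to 40000 UMIs. The share of all genes was taken at the main setting only, so the alternative counts have no background beside them. Counts of the single lists below are at the main setting too. The log2 ratio was below 0 for 126 of the 131, with a median of -0.31 that stayed between -0.42 and -0.22 over 15 alternatives. Over all 11978 genes measured in erythroid cells the median was 0.03, and the share below 0 was not counted. In HSC/MPP 4 of 129 measured were lower and 1 higher, with a median of 0.01, beside 2.97% and 3.49% of all genes. Those counts ran from 0 to 5 lower and 0 to 4 higher over 15 alternatives, with 3 lower and 4 higher in cells of 15000 to 40000 UMIs. Large subunit assembly had 8 of 51 lower in erythroid cells and a median of -0.34. Rrp1b, a nucleolar partner of large subunit assembly, was at 45.2 and 99.7 CPM, Nop2, a ribosomal RNA methyltransferase, at 77.9 and 131 CPM, and Bop1, of the PeBoW complex, at 67.9 and 113 CPM. In HSC/MPP they were at 54.2 and 72.8, 49.5 and 60.8, and 59.9 and 60.8 CPM. Pak1ip1 (156 and 141 CPM), Gnl3l (99.7 and 92.8 CPM) and Senp3 (90.01 and 89.6 CPM) were at the high end of that list in erythroid cells.

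In the small subunit processome 4 of 44 genes were lower by 1.5-fold in erythroid cells, with a median of -0.33, where 1.49% of all genes were as much lower and 2.67% higher, the background for each count of the next 3 lists too. Mphosph10 was at 91.4 and 175 CPM, Dnttip2 at 118 and 195 CPM and Rrp9 at 60.2 and 101 CPM, while Imp3, a U3 particle protein, was at 194 and 187 CPM. The snoRNP list had 0 of 14 lower, with a median of -0.31, and its lowest ratios were those of the box H/ACA proteins Gar1 (146 and 203 CPM) and Nhp2 (213 and 293 CPM) and of Snu13 (455 and 597 CPM). Among 14 genes of RNA polymerase I and its factors 1 was lower, Cd3eap at 33.5 and 58.7 CPM, with a median of -0.22, and Taf1b was higher by less than 1.5-fold, at 25.3 and 17.8 CPM. Of 8 other nucleolar genes 0 were lower by 1.5-fold, and Nol8 was lowest, at 76.2 and 115 CPM.

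Growth genes known as Myc targets had a median log2 ratio of -0.25 in erythroid cells and 0.21 in HSC/MPP. The log2 ratios of Myc itself were -0.02 and -0.42. The erythroid Myc value varied with the mix of stages, and was 0.23 in early, 0.19 in globin-low and 0.23 in globin-onset cells and -0.12 in globin-high cells. The list also holds the heat-shock genes Hspd1 and Hspe1. Any link between Myc and these genes was not tested. In erythroid cells 2 of 24 were at least 1.5-fold lower, Gart of purine synthesis (109 and 184 CPM) and Srm of spermidine synthesis (129 and 215 CPM), and 0 were higher, beside 1.49% and 2.67% of all genes. Paics, also of purine synthesis, was at 506 and 418 CPM in erythroid cells and 510.4 and 413 CPM in HSC/MPP. Of the Myc network, 0 of 11 measured genes passed 1.5-fold either way in erythroid cells, against the same background, and the median was 0.04. Its 3 highest erythroid ratios belonged to Mxd1 (22.9 and 15.2 CPM), Mxi1 (54.6 and 40.04 CPM) and Mxd4 (38.3 and 29.03 CPM), which encode Max partners that oppose Myc. Other Max partners in the list, Mxd3, Mnt and Mga, were not among these 3. The pooled erythroid values of these genes also carry the mix of stages. Mxd4 was at 52.4 and 104 CPM in monocyte-lineage cells.

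**Figure D5:**
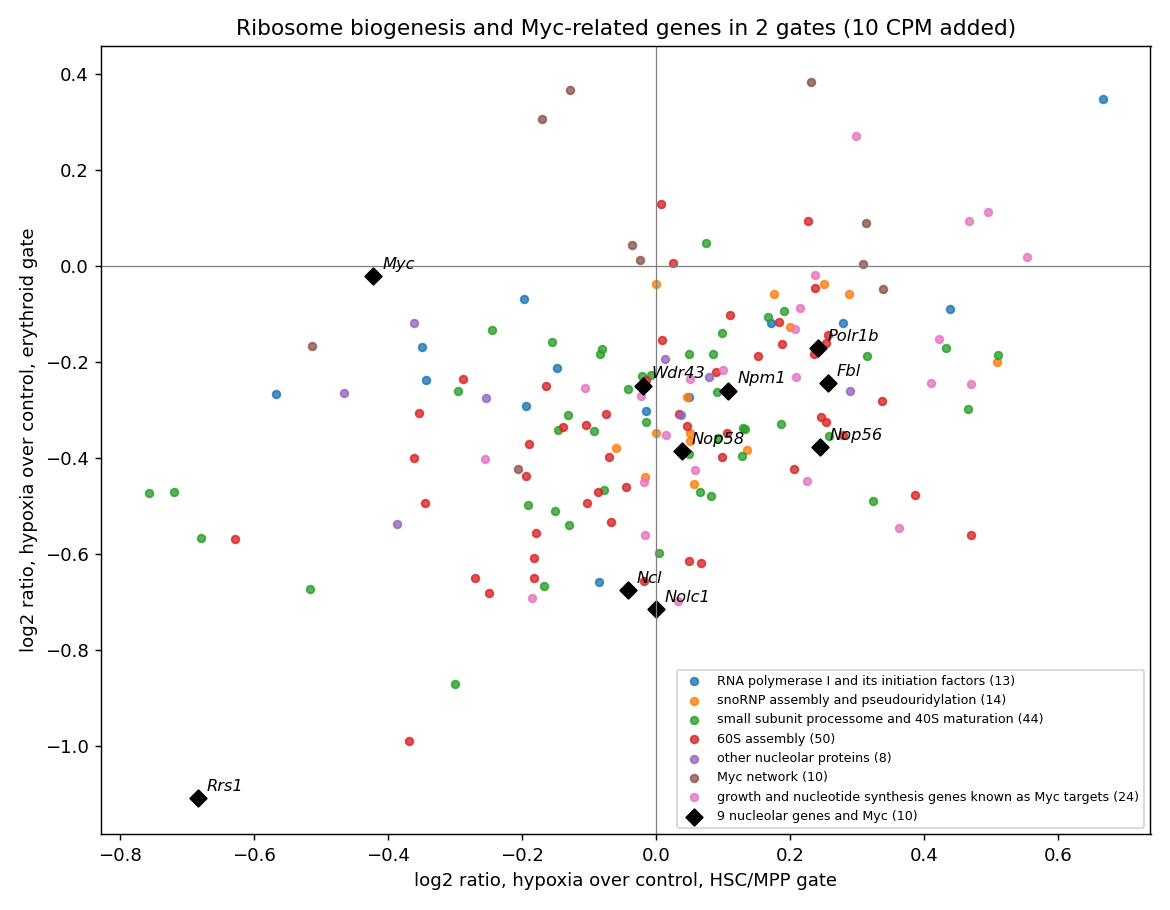
Log2 ratio of hypoxia over control with 10 CPM added in HSC/MPP (x axis) and in erythroid cells (y axis) for genes of 7 lists (coloured points, number in brackets) and the 10 genes followed (black diamonds, named). Most points lie below the horizontal line at 0 and spread to both sides of the vertical one, with Rrs1 at the lower left and Myc at the left near 0 on the y axis.

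Over 28 profiles, 14 gates in 2 libraries, the 9 nucleolar genes varied together. Pearson's r of log2(CPM + 10) was between 0.72 and 0.98 over their 36 pairs (median 0.90), and between 0.42 and 0.64 for Myc with each of them (median 0.53). The profiles share libraries and depths, so these values are a description. Among 7531 genes, those most like the mean of the 9 were Gar1 (r = 0.98), Hspa9, Ndufaf4, Ddx18, Ruvbl2, Hspd1, Dkc1 and Naa15 (0.96). Those most like Myc were Cdk6 (r = 0.91), Snhg6, Kit, Adi1, Phgdh, Tgif1, Zfp106 and Myb (0.85). Cdk6 was at 415 and 558 CPM in erythroid cells and 916 and 1157 CPM in HSC/MPP, and Kit at 216 and 172 CPM and 431 and 386 CPM.

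Among the 113 of 131 list genes with a promoter in the RefSeq table, an E-box CACGTG was in the window of 23 (20.4%), against 8.09% of all 27025 genes. An ETS core was in 66 (58.4%, against 16.7%), a GC box in 76 (67.3%, against 38.2%) and TCTCGCGA in 5 (4.42%, against 1.13%). The list genes were measured in erythroid cells, while the 27025 genes were taken whether measured or not, so the sets are unlike. Every motif searched was more frequent in the list, so the E-box share is not particular to that motif. List genes with an E-box had a median erythroid log2 ratio of -0.33, and those without one had -0.33 as well.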

How the data were processed

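Both tables hold raw UMI counts per cell and gene as deposited, after the recursive substitution error correction of the BD WTA Rhapsody Analysis Pipeline 1.7.1 with GENCODE vM19, per the file headers. Per the submitters' processing notes, Bowtie2 and GRCm38 were used. The sources used here do not say how cells were called. The tables held 6406 hypoxia cells (137504361 UMIs) and 3956 control cells (121415081 UMIs).

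Cells with at least 500 UMIs and 200 genes and under 20% mitochondrial UMIs were kept (14 and 6 removed), and Scrublet (scanpy 1.11.5, seed 0) removed 112 and 33 doublets. Gates used summed marker UMIs per 10000, with thresholds set after marker distributions and cell counts were seen. Cells in no gate (198 and 325) or in more than 1 (49 and 8) were left out. UMIs were summed per gate and library, with exact Poisson 95% intervals and exact conditional intervals for ratios, which treat UMIs as independent. Log2 ratios had 10 CPM added, and genes needed 50 UMIs over both libraries. With 1 library per group no test was run. Sums were also scaled by TMM (edgeR 4.0.16). The ratio was tested on simulated counts. Python 3.11.15 and R 4.3.3 were used. The members and gene lists were chosen with earlier results of these data known. Named are all 10 members, the 3 highest and 3 lowest erythroid ratios of each list, from which the text takes those it describes, and the 8 genes most like Myc or the nucleolar mean.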

Additional observations from a re-analysis of the deposited data

Results flagged for a closer look

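For 4 genes the log2 ratio of hypoxia over control had opposite directions in 2 gates, with counting intervals that left out a ratio of 1 in both. With 1 library per group none of these differences was tested. The 2 gates of each gene were picked by their ratios from all gates. The share of all genes meeting the same rule is not given here, so the count of 4 has no background. For Myc the log2 ratio was 0.23 in globin-onset erythroid cells and -1.17 in monocyte-lineage cells, a difference of 1.40. For Nop56 it was 0.25 in HSC/MPP and -0.64 in globin-high erythroid cells, a difference of 0.89. For Npm1 it was 0.38 in B-lineage cells, which were few, and -0.36 in globin-high erythroid cells, a difference of 0.74. For Fbl it was 0.22 in monocyte-lineage cells and -0.47 in globin-high erythroid cells, a difference of 0.69.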

How the results depend on the processing

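No paired analysis was possible because each group had 1 library. The median log2 ratio of the 9 nucleolar genes in erythroid cells (-0.38) stayed below 0 under all 15 alternatives. It was -0.50 with TMM factors, -0.40 with mitochondrial, ribosomal protein, globin and heat-shock genes out of the total, -0.35 with 50 CPM added, -0.42 as a mean over cells, -0.41 in thinned cells and -0.30 in cells of 15000 to 40000 UMIs. With the 4 stages weighted equally it was -0.35 and without globin-high cells -0.29, both chosen after seeing the data. Erythroid Myc (-0.02) was -0.14 with TMM, -0.070 as a mean over cells, -0.075 in thinned cells, 0.20 with stages weighted equally and 0.12 without globin-high cells. HSC/MPP Myc (-0.42) was -0.65 with doubled marker thresholds. The count of 13 list genes at least 1.5-fold lower in erythroid cells was 29 with TMM, 20 with 1 CPM added, 2 with 50 CPM added, 2 in cells of 15000 to 40000 UMIs, 0 at 2-fold, 8 with stages weighted equally and 3 without globin-high cells. The share of all genes was not taken under these alternatives, for this count or for those of HSC/MPP. The HSC/MPP count of 4 lower was 0 with 50 CPM added and 0 at 2-fold. The HSC/MPP count of 1 higher was 2 with 1 CPM added, 0 with 50 CPM added or at 2-fold, 3 as a mean over cells, with doubled thresholds or in thinned cells, and 4 in cells of 15000 to 40000 UMIs. Of 2282 other values over 17 alternatives 154 differed in sign from the main value. Apart from the next 3, 1967 moved by less than their interval and 312 by more. The main value was at least 1.5-fold from 1 for 3 that changed sign: Polr1b in B-lineage cells as a mean over cells (-0.00064), and, in cells of 15000 to 40000 UMIs, Nop58 in eosinophils (0.014) and Myc in B-lineage cells (0.89). In that range of depth there were only 4 hypoxia and 2 control eosinophils, and 3 hypoxia and 2 control B-lineage cells. The cause of these shifts was not tested. TMM moved the median of all genes from 0.03 to -0.01 in erythroid cells. In gates of few cells depth limits every value, and nothing here measures variation between animals.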
